A study of Mus musculus with 4 samples.

Results

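Ly6d is a single gene of the 27998 counted in a single-cell study of lymphoid-primed multipotent progenitors (LMPPs), early bone marrow progenitors with lymphoid and myeloid potential, and it was taken by its identifier, ENSMUSG00000034634. Its transcripts were read in 8883 cells sorted by flow cytometry from C57BL/6 mice and captured in 10x Genomics droplets. The uninduced mice lacked RBPJ. The 3-day and 6-day induced mice had lacked RBPJ until doxycycline, injected at 2 mg/ml and followed by 1 mg/ml in drinking water, switched its expression on. The control mice had kept RBPJ throughout. The labels give no alleles, sex, age or number of mice, and they carry the doxycycline text for every group, so whether uninduced and control mice received it is not stated. Each group is 1 library, so no difference between groups was tested, and group and library cannot be told apart. The 95% intervals in brackets cover counting error only, and they are too narrow for Ly6d because its transcripts were concentrated in few cells.

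Ly6d encodes a small protein of the Ly6 family that is held on the cell surface by a glycosylphosphatidylinositol anchor. In mouse bone marrow its surface protein divides common lymphoid progenitors into Ly6d-positive cells biased to the B lineage and Ly6d-negative cells that keep broader lymphoid potential. Il7r, the receptor chain for interleukin 7, and Ebf1, a transcription factor that specifies the B lineage, are switched on at about the same steps. RBPJ is the DNA-binding partner of activated Notch receptors, and Hes1, a transcriptional repressor, is among the genes they switch on. Ccr9 encodes a chemokine receptor that guides progenitors to the thymus, and Bank1 encodes a scaffold of B cell receptor signalling.

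Ly6d lies on the minus strand of chromosome 15 at 74762056 to 74763620 (GRCm38) and has 3 exons in GENCODE vM21. The first 300 of the 384 bases of its coding sequence, from GENCODE, are shown because they identify the transcript counted, with the start codon in capitals.
Ly6d coding sequence, first 300 bases: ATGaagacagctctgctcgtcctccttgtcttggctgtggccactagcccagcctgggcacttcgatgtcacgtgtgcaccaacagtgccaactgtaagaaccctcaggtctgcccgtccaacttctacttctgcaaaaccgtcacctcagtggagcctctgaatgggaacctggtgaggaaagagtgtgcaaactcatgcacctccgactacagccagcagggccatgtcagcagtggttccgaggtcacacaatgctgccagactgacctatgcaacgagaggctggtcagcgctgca
The promoters of Il7r and Ebf1 are shown because these were the partners whose shares in Ly6d-positive and Ly6d-negative cells had intervals apart in all 4 libraries. They come from RefSeq on GRCm38.p6, as 250 bases before to 50 after the start of transcription, and 4 of the 6 genes studied matched the promoter table (Il7r, Ebf1, Ccr9 and Bank1, but not Ly6d and Hes1). The core of the RBPJ motif, TGGGAA on either strand, was searched, and its match, TTCCCA on the strand shown, is in capitals.
Il7r promoter, chr15:9529827-9530126, minus strand: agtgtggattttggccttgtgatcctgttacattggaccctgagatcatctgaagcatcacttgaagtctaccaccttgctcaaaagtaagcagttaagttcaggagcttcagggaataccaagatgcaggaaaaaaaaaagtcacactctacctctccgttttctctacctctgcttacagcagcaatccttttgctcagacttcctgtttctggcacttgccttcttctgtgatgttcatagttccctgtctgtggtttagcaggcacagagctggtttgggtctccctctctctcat
Ebf1 promoter, second start, chr11:44619978-44620277, plus strand: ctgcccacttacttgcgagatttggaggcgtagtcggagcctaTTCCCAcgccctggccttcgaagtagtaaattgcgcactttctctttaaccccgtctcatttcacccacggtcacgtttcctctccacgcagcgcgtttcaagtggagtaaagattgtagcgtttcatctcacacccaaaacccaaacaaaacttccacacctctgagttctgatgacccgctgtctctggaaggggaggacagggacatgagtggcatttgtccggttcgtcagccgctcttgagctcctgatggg
The second Ebf1 promoter held 1 match, on the opposite strand and 207 bases before the start, and the promoters of Il7r, Ccr9 and Bank1 and the first of Ebf1 held none. Of 32851 promoters of this length, 25.6% hold these letters, so the match is a description of the sequence only.

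The cells numbered 2769 in the uninduced, 1292 in the 3-day, 2129 in the 6-day and 2693 in the control library, with median depths of 6774 to 7920 unique molecular identifiers (UMIs, 1 per captured transcript) per cell. Of all barcodes, 49 stood in more than 1 library, and without them the Ly6d levels were 26.2, 12.2, 27.4 and 12.5 CPM (UMIs summed over cells and scaled to a common library total) in uninduced, 3-day, 6-day and control cells. Rbpj itself was at 11.2 CPM in uninduced, 508 CPM in 3-day, 485 CPM in 6-day and 17.8 CPM in control cells. Both induced libraries thus stood far above the control level. Uninduced cells, which lacked RBPJ by the labels, still held Rbpj transcripts. A cluster led by the stress genes Hspa1a, Cxcl2 and Atf3 held 12.1% of uninduced, 21.7% of 3-day, 6.58% of 6-day and 4.34% of control cells, and 4, 1, 0 and 0 Ly6d UMIs. Genes of mature neutrophils were at least 1.5-fold higher in uninduced than in control cells for 8 of 8 measured, beside 0.691% of all 7235 genes, but the neutrophil-like cluster held 2 of the 1465 Ly6d UMIs, and without it and the other clusters named for other cell types the levels were 26.4 and 12.5 CPM in uninduced and control cells. The part of the stress genes in the Ly6d differences was not tested.

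The Ly6d level formed a high pair and a low pair of libraries. Summed over all cells, Ly6d had 546 UMIs in uninduced, 130 in 3-day, 497 in 6-day and 292 in control cells. Its level was 26.1 CPM (23.9 to 28.3) in uninduced, 12.2 CPM (10.2 to 14.5) in 3-day, 28.5 CPM (26 to 31.1) in 6-day and 12.4 CPM (11.0 to 13.9) in control cells. The intervals of the 6-day and uninduced libraries overlapped, as did those of the control and 3-day libraries, and the pairs were apart from each other. In bulk sums of this kind, fewer Ly6d-expressing cells and less Ly6d per cell cannot be told apart, so both are given below.

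Uninduced cells had 2.10-fold (1.82 to 2.43) the control level. That was the 26th highest ratio among the 7235 genes that reached 10 CPM in uninduced or control cells, of which 0.359% were at least 2-fold higher on the CPM + 1 scale and 0.111% at least 2-fold lower. After 3 days of induction the level was 0.469-fold (0.384 to 0.568) that of uninduced cells, the 8th lowest ratio of 7082, with 0.113% of genes at least 2-fold lower. The 3-day level was 0.983-fold (0.793 to 1.21) the control level. After 6 days the level was 1.09-fold (0.966 to 1.24) that of uninduced cells and 2.29-fold (1.98 to 2.66) that of control cells. Of genes in the comparison of 6-day with control cells, 0.332% were at least 2-fold higher. Between the induced libraries, 6-day cells had 2.33-fold (1.92 to 2.85) the 3-day level, the 10th highest ratio of 7118, with 0.253% of genes at least 2-fold higher. The median log2 ratio of all genes lay between -0.10 and -0.01 in these comparisons.

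The partners differed from Ly6d in the order of the libraries or in the size of the ratios. Il7r was at 18.5 CPM in uninduced, 15.6 CPM in 3-day, 32.4 CPM in 6-day and 27.4 CPM in control cells, so that uninduced cells had 0.677-fold (0.595 to 0.769) the control level where Ly6d was higher. Ebf1 was at 9.88 CPM in uninduced, 10.7 CPM in 3-day, 21.4 CPM in 6-day and 9.15 CPM in control cells, with uninduced cells at 1.08-fold (0.888 to 1.31) control and 6-day cells at 2.17-fold (1.83 to 2.58) uninduced. Hes1 was at 18.0 CPM in uninduced, 43.5 CPM in 3-day, 129 CPM in 6-day and 89.7 CPM in control cells. Ccr9 was at 12.9 CPM in uninduced, 9.86 CPM in 3-day, 18.2 CPM in 6-day and 12.2 CPM in control cells, the same order as Ly6d, with uninduced cells at 1.06-fold (0.890 to 1.25) control and 3-day cells at 0.765-fold (0.605 to 0.962) uninduced. Bank1 was at 7.11 CPM in uninduced, 3.10 CPM in 3-day, 5.10 CPM in 6-day and 4.08 CPM in control cells, with uninduced cells at 1.74-fold (1.34 to 2.27) control and 3-day cells at 0.436-fold (0.289 to 0.639) uninduced. Of the other B lineage genes on a list of 24, at 10 CPM or more, 0 of 6 were at least 1.5-fold higher in uninduced than in control cells, and 0 of 7 were lower in 3-day than in uninduced cells (0.847% of all genes were). In 6-day against uninduced cells, 2 of 7 were higher, Ebf1 and the recombinase gene Rag2, beside 0.733% of all genes.

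**Figure D1:**
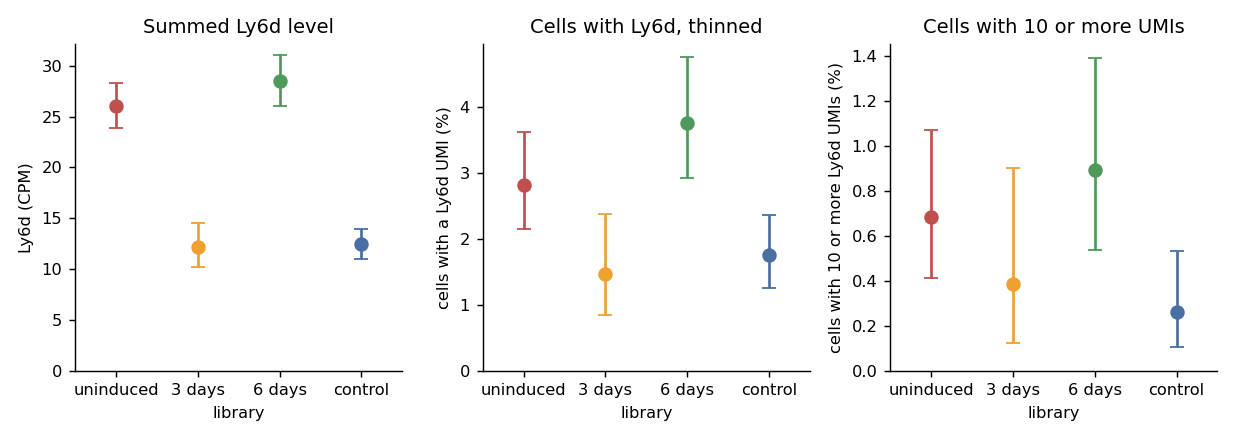
Ly6d by library, as the summed level in CPM (left), the share of cells with a Ly6d UMI after thinning each cell to 4700 UMIs (middle) and the share of all cells with 10 or more Ly6d UMIs (right). Points are library values and bars 95% exact intervals of counting error; the summed level stands at 26.1 and 28.5 CPM in uninduced and 6-day cells and at 12.2 and 12.4 CPM in 3-day and control cells.

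Ly6d transcripts were found in few cells. At full depth 90 of 2769 uninduced cells (3.25%), 26 of 1292 3-day cells (2.01%), 88 of 2129 6-day cells (4.13%) and 76 of 2693 control cells (2.82%) held at least 1 Ly6d UMI. Positive cells were deeper than negative cells, with median totals of 10058.5 against 6694 UMIs in the uninduced library, so cells were also thinned to 4700 UMIs each, leaving out 676 uninduced, 204 3-day, 374 6-day and 351 control cells. Thinned shares were 2.82% (2.15 to 3.62) in uninduced, 1.47% (0.843 to 2.38) in 3-day, 3.76% (2.92 to 4.76) in 6-day and 1.75% (1.26 to 2.37) in control cells. The 6-day interval lay above those of 3-day and control cells, and the uninduced interval overlapped all others. As a background, the stem cell-like cluster, led by Ltb and Hlf, held Ly6d in 2 of 932 cells (0.215%) at a median of 4852 UMIs per cell. Barcodes with only 10 to 100 UMIs, which hold RNA from outside cells, had Ly6d at 23.7 CPM in the uninduced, 3.17 CPM in the 3-day, 28.6 CPM in the 6-day and 23.2 CPM in the control library, from 11, 1, 32 and 40 UMIs.

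Positive cells differed widely in how much Ly6d they held. A single UMI was seen in 34 of 90 positive uninduced cells, 11 of 26 3-day cells, 29 of 88 6-day cells and 39 of 76 control cells. The mean over positive cells was 6.07 ± 8.72 UMIs in uninduced, 5 ± 6.31 in 3-day, 5.65 ± 6.26 in 6-day and 3.84 ± 5.66 in control cells (SD over cells). Medians were 2, 2, 3 and 1 UMIs. Cells with 10 or more Ly6d UMIs numbered 19 in uninduced (0.686%, 0.414 to 1.07), 5 in 3-day (0.387%, 0.126 to 0.901), 19 in 6-day (0.892%, 0.538 to 1.39) and 7 in control cells (0.260%, 0.105 to 0.535). Between uninduced and control libraries the ratio of thinned shares was 1.61 and that of mean thinned UMIs per positive cell 1.52. At full depth the 2 ratios were 1.15 and 1.58, so the share differed less there, and the thinned share intervals overlapped. Between 3-day and uninduced libraries the thinned ratios were 0.522 and 0.860, and between 6-day and uninduced libraries 1.33 and 0.918.

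The 10 cells with the most Ly6d held 48.4% of the UMIs in the uninduced, 82.3% in the 3-day, 39.4% in the 6-day and 54.5% in the control library. Without them the levels were 13.5, 2.18, 17.4 and 5.69 CPM in the same order. By these levels 3-day cells stood at 0.162-fold uninduced and 0.384-fold control cells, and 6-day cells at 7.95-fold 3-day cells. The cut took 10 of 90 positive cells in uninduced, of 26 in 3-day, of 88 in 6-day and of 76 in control cells. It was deepest in the 3-day library, so these ratios are not like for like. The single highest cell, in the uninduced library, had 53 Ly6d UMIs of 4113 in all, with 1 Il7r UMI and no Ebf1, Ccr9, Bank1 or Hes1 UMI, and lay in a cluster led by the myeloid genes Ctsg, Irf8 and Mpo. The highest 3-day cell had 26 Ly6d UMIs with 4 of Ebf1 and 2 of Il7r. Of the 2 highest 6-day cells, with 27 each, the deeper had 5 of Ebf1, 6 of Il7r and 6 of Hes1. The highest control cell had 33 Ly6d UMIs with 10 of Ebf1, 2 of Il7r, 2 of Ccr9 and 4 of Hes1.

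**Figure D2:**
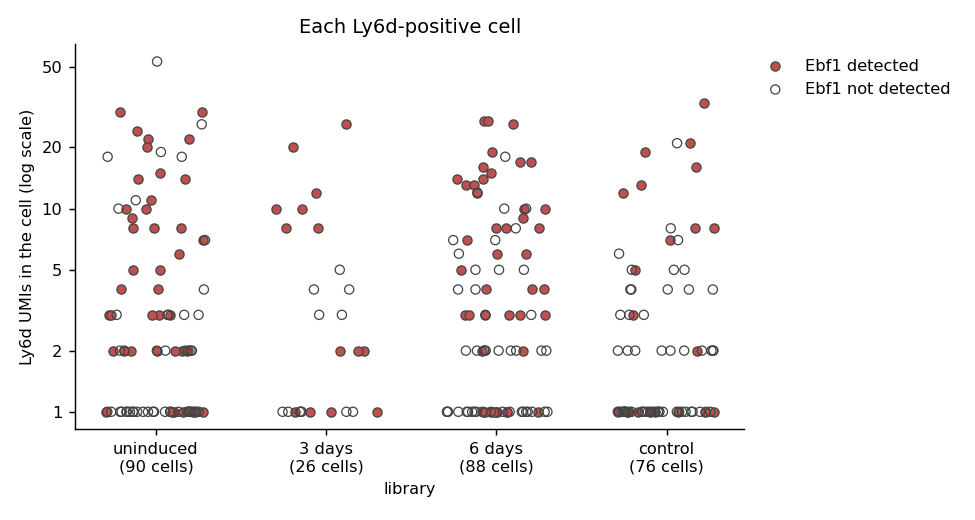
Each Ly6d-positive cell by library (horizontal, spread at random within a library) and by its Ly6d UMIs at full depth (vertical, log scale), filled where an Ebf1 UMI was also present. The highest cell, with 53 UMIs in the uninduced library, has no Ebf1 UMI, whereas 7 of the 8 3-day cells with 5 or more have one.

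Cells with Ly6d held Ebf1 and Il7r more often than cells without it, in every library. After thinning, Ebf1 was found in 21 of 59 Ly6d-positive against 28 of 2034 Ly6d-negative uninduced cells (35.6% against 1.38%). In 3-day cells it was found in 6 of 16 against 14 of 1072 (37.5% against 1.31%), in 6-day cells in 28 of 66 against 55 of 1689 (42.4% against 3.26%) and in control cells in 10 of 41 against 36 of 2301 (24.4% against 1.56%). The exact intervals of positive and negative cells did not overlap in any of the 4 libraries. Read the other way, Ly6d was present in 42.9% of Ebf1-positive uninduced (28.8 to 57.8), 6 of 20 3-day (11.9 to 54.3%), 33.7% of 6-day (23.7 to 44.95) and 21.7% of control cells (11.0 to 36.4). The last 4 intervals overlap.

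Il7r was present in 35.6% of Ly6d-positive against 6.44% of Ly6d-negative uninduced cells, 31.3% against 4.38% of 3-day cells, 45.5% against 9.47% of 6-day cells and 46.3% against 7.69% of control cells. These intervals too were apart in each library. Of Il7r-positive cells, fewer held Ly6d than of Ebf1-positive cells, at 13.8% in uninduced, 9.62% in 3-day, 15.8% in 6-day and 9.69% in control cells. Both Il7r and Ebf1 were found in 18.6% of Ly6d-positive uninduced, 12.5% of 3-day, 24.2% of 6-day and 14.6% of control cells. Neither was found in 47.5%, 43.8%, 36.4% and 43.9%, so that at this depth many Ly6d-positive cells showed no transcript of these B lineage partners.

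Ccr9 and Bank1 were rare beside Ly6d. Ccr9 was present in 5 of 59 Ly6d-positive against 62 of 2034 Ly6d-negative uninduced cells (8.47% against 3.05%), 1 of 16 against 32 of 1072 3-day cells, 3 of 66 against 87 of 1689 6-day cells (4.55% against 5.15%) and 4 of 41 against 81 of 2301 control cells (9.76% against 3.52%). Bank1 was present in 4 of 59 Ly6d-positive uninduced, 0 of 16 3-day, 2 of 66 6-day and 1 of 41 control cells, against 2.51%, 1.49%, 2.07% and 1.61% of Ly6d-negative cells. For both genes the positive and negative intervals overlapped in all 4 libraries, and the 16 positive 3-day cells allow Bank1 in up to 20.6%. Cells with Ly6d and both Ccr9 and Bank1 numbered 1 in uninduced, 0 in 3-day, 0 in 6-day and 1 in control cells. Seen from the other side, the cluster led by Ccr9, Tmem158 and Gm19331, among whose leading genes is Bank1, held Ly6d in 3 of 647 cells.

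Hes1 was found in 20.3% (11.0 to 32.8) of Ly6d-positive against 5.11% (4.20 to 6.16) of Ly6d-negative uninduced cells and in 33 of 66 (37.4 to 62.6%) against 25.4% (23.3 to 27.5) of 6-day cells, where the intervals were apart. It was found in 31.3% (11.0 to 58.7) against 9.33% (7.65 to 11.2) of 3-day cells and 29.3% (16.1 to 45.5) against 18.2% (16.6 to 19.8) of control cells, where they overlapped. In uninduced cells, which lacked RBPJ, 12 of 116 Hes1-positive cells (10.3%) against 47 of 1977 Hes1-negative cells (2.38%) held Ly6d. Rbpj transcripts, the induced ones, were present in 43.8% of Ly6d-positive against 43.5% of Ly6d-negative 3-day cells and in 54.5% (41.8 to 66.9) against 43.2% (40.8 to 45.6) of 6-day cells. Ly6d was present in 7 of 473 Rbpj-positive against 9 of 615 Rbpj-negative 3-day cells and in 36 of 766 against 30 of 989 6-day cells (4.70% against 3.03%, with overlapping intervals).

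**Figure D3:**
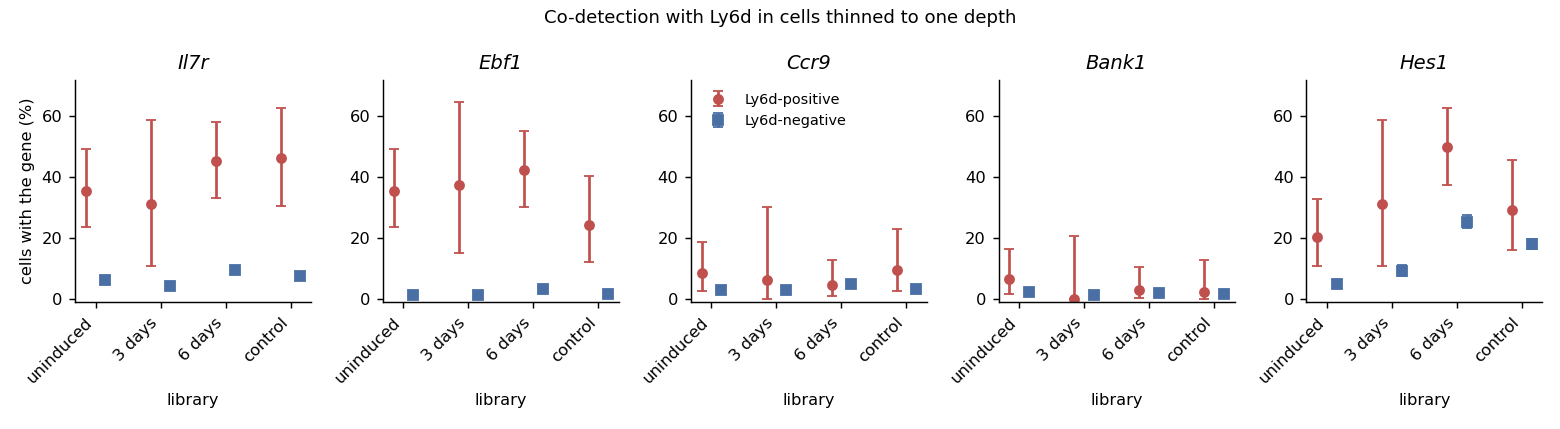
Share of Ly6d-positive (circles) and Ly6d-negative cells (squares) of each library with a UMI of Il7r, Ebf1, Ccr9, Bank1 or Hes1, after thinning every cell to 4700 UMIs; bars are 95% exact intervals. Circles stand far above squares for Il7r and Ebf1 and near them for Ccr9 and Bank1.

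Detection of Ebf1 and Il7r went with the amount of Ly6d as well as its presence. At full depth, over all 4 libraries, Ebf1 was present in 2.39% of 8603 cells with no Ly6d UMI, 25.7% of 113 cells with 1, 37.5% of 80 cells with 2 to 4 and 69.0% of 87 cells with 5 or more. Median depth was 7261 UMIs in cells with none and between 10157 and 10697.5 in the other classes, so depth was nearly level among positive cells. Among cells with 5 or more Ly6d UMIs, Ebf1 was present in 20 of 28 uninduced, 7 of 8 3-day, 23 of 34 6-day and 10 of 17 control cells. The share was not ordered in every library, since 2 of 20 control cells with 2 to 4 UMIs held Ebf1 against 9 of 39 with 1. Il7r was present in 10.5%, 44.2%, 51.3% and 70.1% over the same classes from none to 5 or more.

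Among positive cells of all 4 libraries, Rag1 and Cd79a were found more often with 5 or more Ly6d UMIs than with 1. Rag1, which cuts DNA to assemble antigen receptor genes, is on both the lymphoid priming and the B lineage list. It was present in 5.31% of cells with 1 Ly6d UMI and 27.6% of cells with 5 or more. Cd79a, a signalling chain of the B cell receptor, was present in 2.65% and 27.6%. Pax5, which commits cells to the B lineage, was present in 2 of the 113 cells with 1 and 6 of the 87 cells with 5 or more. Vpreb3, also on the B lineage list, did not rise in this way from 2 to 4 UMIs to 5 or more. It was present in 4 of 28 against 2 of 28 uninduced and 1 of 7 against 0 of 8 3-day cells. In 6-day cells it was in 3 of 25 against 3 of 34, and in control cells in 1 of 20 against 1 of 17. Cox6a2, a cytochrome oxidase subunit also known as a plasmacytoid dendritic cell gene, was present in 56.6% of cells with 1 UMI and 72.4% of cells with 5 or more. Siglech, a defining plasmacytoid dendritic cell surface gene, was present in 4 of the 280 positive cells, all with 5 or more Ly6d UMIs, 3 of them in the control library, and in 0.337% of cells without Ly6d. Flt3 is the receptor whose high surface level defines LMPPs. It was present in 74.9% of cells without Ly6d and in 75.0% to 82.3% of the positive classes. Over all 4 libraries together, Ccr9 and Bank1 stayed between 3.28% and 13.8% in all classes. Single libraries varied more for Ccr9. From 1 UMI to 5 or more it was present in 0 of 39, 2 of 20 and 6 of 17 control cells. In 3-day cells it was present in 2 of 11, 2 of 7 and 0 of 8.

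**Figure D4:**
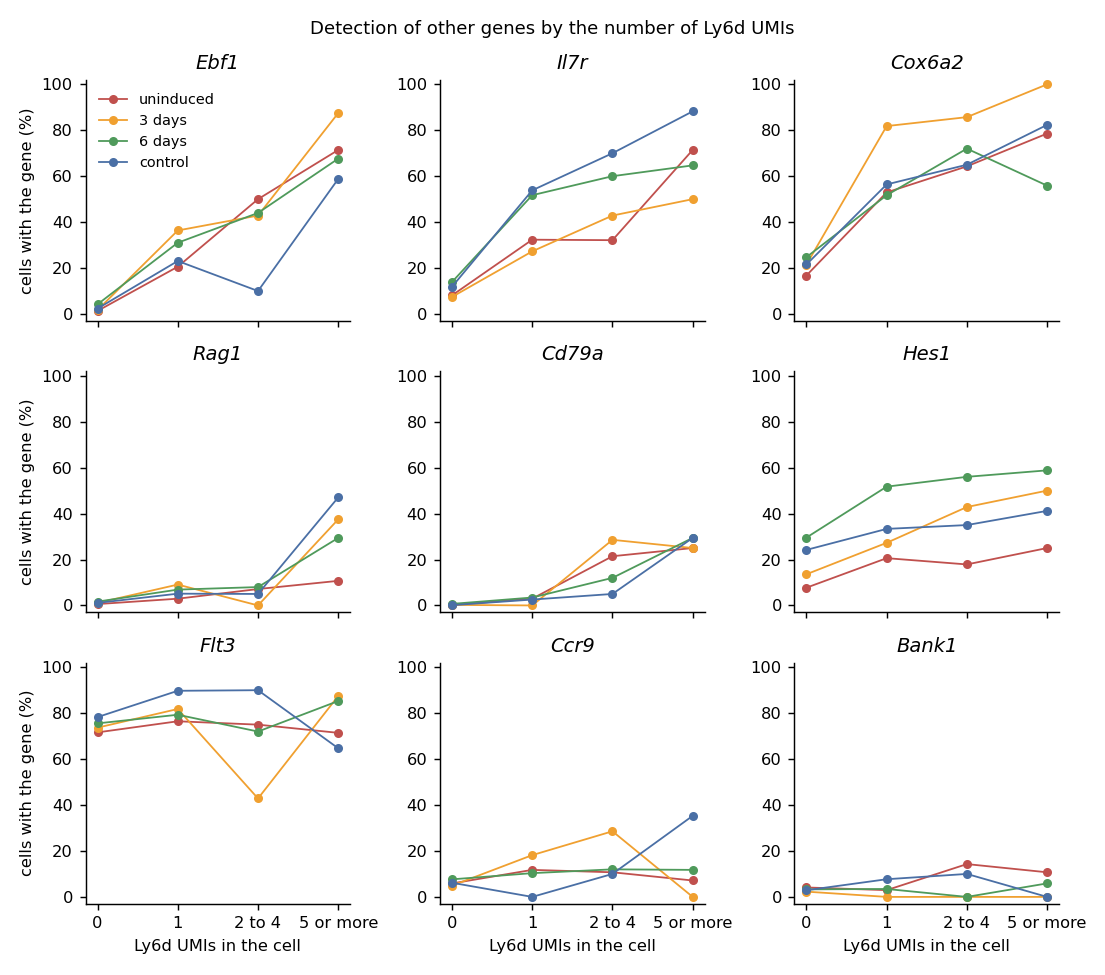
Share of cells with a UMI of each named gene (vertical, percent of cells at full depth) by the Ly6d UMIs in the cell (horizontal), with 1 line for each library. Ebf1 reaches 58.8% to 87.5% of cells with 5 or more Ly6d UMIs, while Bank1 stays at 14.3% or below. Ccr9 reaches 35.3% of control cells with 5 or more.

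Across all genes, Ly6d-positive cells were set against Ly6d-negative cells of the same library, by UMIs summed over thinned cells. Of 7445 genes at 10 CPM or more in either set, 28 were at least 2-fold higher in positive cells in each of the 4 libraries (0.376%) and 49 at least 2-fold lower (0.658%), counted by size and not by test. Ebf1 led, at 180 CPM in positive against 6.62 CPM in negative cells on average, with log2 ratios of (CPM + 1) from 4.10 to 5.03 over the libraries. It was followed by Mzb1, an endoplasmic reticulum co-chaperone of B cells (70.8 against 3.51 CPM, log2 ratios 2.99 to 5.54), Cd79a (35.9 against 1.89 CPM, 2.47 to 4.01) and Blnk, an adaptor of B cell receptor signalling (69.4 against 10.3 CPM, 2.27 to 3.09). Il7r had 129 against 18.7 CPM (2.06 to 3.63), and Rag1 31.6 against 1.42 CPM (1.93 to 4.53).

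The next genes were of other kinds. Tmem108, a transmembrane protein gene, had 183 against 34.4 CPM, Cox6a2 255 against 57.2 CPM and Arpp21, a phosphoprotein gene known from neurons, 137 against 38.7 CPM. Socs2, a feedback inhibitor of cytokine signalling, had 48.5 against 7 CPM, Mta3, a chromatin repressor subunit, 273 against 79.1 CPM and Mgst2, a glutathione transferase, 83.8 against 24.9 CPM. Xrcc6, the Ku70 subunit of DNA end joining, had 200.1 against 65.2 CPM, the transferrin receptor gene Tfrc 40.3 against 10.2 CPM and the filament gene Bfsp2 74.0 against 19.5 CPM. Plekha7, Hist1h2bm, Dok3, Raph1 and Hist1h2bk, at 11.9 to 16.6 CPM in positive cells, complete the 20 highest, and each rests on 1 UMI in the 16 positive 3-day cells, as Cd79a does. With all UMIs in place of thinned ones, 17 of the 20 were at least 2-fold higher in each library.

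Genes lower in positive cells were led by neutrophil granule genes. Ngp, S100a8, S100a9, Lcn2, Camp, Wfdc21, Chil3 and Ltf averaged 0 to 10.5 CPM in positive and 25.7 to 1413 CPM in negative cells. At full depth the 26 positive 3-day cells included 1 of the neutrophil-like cluster, with 2 Ly6d UMIs of 28213 in all. Its part in the 3-day ratios at full depth was not tested. With all UMIs in place of thinned ones, 4 of the 10 lowest genes were at least 2-fold lower in each library. In positive 3-day cells S100a8, S100a9, Wfdc21 and Chil3 were then higher, at log2 ratios of 0.87, 0.79, 1.34 and 0.65. Their negative level came from few cells: without the erythroid and megakaryocyte-like cluster, the neutrophil-like cluster, a 5-cell cluster led by Ccl5 and Gzma and a mixed cluster of early B and myeloid genes, a setting chosen after the data were seen, S100a8 had 7.42 against 23.3 CPM, and 2 of the 10 lowest genes were still at least 2-fold lower in each library. These 2 were Gm15658, a gene of unnamed function, and Dqx1, an RNA helicase-like gene, each at 0 in positive and at 10.4 and 10.2 CPM in negative cells. With all UMIs neither was 2-fold lower in each library, and in 3-day cells their log2 ratios were 0.54 for Gm15658 and 0.24 for Dqx1. The genes at least 2-fold higher numbered 28 without those clusters as well, 26 of them the same.

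By gene list, B lineage specification had the most members called higher. Of 16 of its members at 10 CPM or more in either set, 8 were at least 2-fold higher in Ly6d-positive cells of each library and 0 lower. Over all 7445 genes these shares were 0.376% and 0.658%. The median log2 ratio was 1.56 against -0.08 over all genes. Ebf1, Mzb1, Cd79a and Rag1 reached 10 CPM in positive cells only, at 6.62, 3.51, 1.89 and 1.42 CPM in negative cells. The count and the median lean on that filter, so they are descriptions only. The 8 were Ebf1, Mzb1, Rag1, Cd79a, Blnk, Myl4, Vpreb1 and Dntt. Vpreb1 encodes a surrogate light chain and Dntt the terminal transferase that adds bases to antigen receptor joins. Dntt had 2008 against 733 CPM. The remaining 8 did not pass in every library, among them Bach2 at 15.3 against 7.76 CPM and Cd79b at 30.9 against 34.7 CPM. Of 18 lymphoid priming genes, 3 were higher (Il7r, Rag1 and Dntt), but Rag1 and Dntt are also on the B lineage list and are counted there too. Of 18 plasmacytoid dendritic genes, 1 was higher, Cox6a2, and 1 lower, Ly6c2, while Irf8 was at 115 against 106 CPM and Tcf4 at 177 against 167 CPM. No MHC class II gene of 9 passed either way.

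Of 12 measured stem cell genes, 2 were at least 2-fold lower in each library, beside 0.658% of all genes, and 0 at least 2-fold higher. These 2 were the transcription factors Hlf (12.2 against 59.1 CPM) and Mecom (6.42 against 31.7 CPM), and the median log2 ratio of the 12 was -0.74. Ly6a, which encodes Sca-1, averaged 145 against 86.4 CPM, with log2 ratios of -0.23 to 1.55. Kit, the stem cell factor receptor, was at 23.7 against 53.0 CPM without passing in each library, and Flt3 was at 243 against 206 CPM. Cell cycle lists were not called, with 0 of 20 S phase genes and 0 of 22 G2 and M phase genes past 2-fold in every library, and medians of 0.04 and 0.39. Hes1 was at 183 against 71.5 CPM, with log2 ratios of 0.88 to 2.48.

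Cells were clustered without Ly6d and its partners, and Ly6d was concentrated in a few of the 16 clusters. Cluster 8, led by Tmem108, Cox6a2 and Socs2, held Ly6d in 88 of 657 cells (13.4%). Cluster 9, led by the mitotic genes Ccnb1 and Cdc20, held it in 59 of 426 cells (13.8%). Both showed 3 common lymphoid or early B markers. Together they held 53.5% of the Ly6d UMIs in 8.38% of uninduced cells, 83.8% in 10.8% of 3-day cells, 61.6% in 16.3% of 6-day cells and 57.5% in 13.5% of control cells. Cluster 1, of cycling cells led by Nusap1, stood at 16.3 CPM and the Ctsg, Irf8 and Mpo cluster at 15.2 CPM. Clusters of stem cell-like, stress-gene and S phase cells were at 0.425, 0.981 and 0.982 CPM.

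By summed UMIs, uninduced cells were above control cells within both clusters. In cluster 8 Ly6d was at 139 CPM in uninduced against 51.4 CPM in control cells, 2.70-fold (2.09 to 3.52), and in cluster 9 at 114 against 32.6 CPM, 3.49-fold (2.60 to 4.72). The full-depth shares of positive cells had overlapping intervals, at 15.2% (9.91 to 22.0) against 11.8% (7.82 to 17.0) in cluster 8. In cluster 9 they were 19.8% (11.7 to 30.1) against 11.8% (7.12 to 18.0). Single uninduced cells of cluster 8 held 30, 26 and 22 of its 170 UMIs. Ly6d in 3-day against uninduced cells, by summed UMIs, was at 0.721-fold (0.521 to 0.984) in cluster 8, 0.483-fold (0.345 to 0.669) in cluster 9 and 0.168-fold (0.0706 to 0.344) in cluster 1. Single uninduced cells of cluster 1 held 30 and 19 of its 100 UMIs. The intervals of the full-depth shares of positive cells overlapped in each of these clusters. These shares were 15.4% (7.63 to 26.5) against 15.2% (9.91 to 22.0) in cluster 8 and 6.67% (2.20 to 14.9) against 19.8% (11.7 to 30.1) in cluster 9. In cluster 1 they were 2.29% (0.749 to 5.27) against 3.93% (2.35 to 6.14). In cluster 8 the order of levels was uninduced, 3-day at 100.1 CPM, 6-day at 75.0 CPM and control, so 6-day cells had 0.540-fold (0.430 to 0.678) the uninduced level there, beside 1.09-fold over all cells. Over clusters 8 and 9 after thinning, Ly6d was found in 14.5% (10.2 to 19.8) of uninduced, 7.35% (3.58 to 13.1) of 3-day, 10.5% (7.44 to 14.2) of 6-day and 7.84% (5.27 to 11.1) of control cells, with overlapping intervals.

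In the Ctsg, Irf8 and Mpo cluster Ly6d was at 38.2 CPM in uninduced against 2.23 CPM in control cells, but 53 of its 83 uninduced UMIs were those of the single highest cell. A small mixed cluster of 67 cells, led by Ly6c2, Lgals3 and Elane with Vpreb3 and Cd79a, was left unnamed. It held 103 Ly6d UMIs in 21 cells, and without it and the 3 clusters of other cell types the levels were 24.5 CPM in uninduced, 12.1 CPM in 3-day, 27.8 CPM in 6-day and 11.2 CPM in control cells.

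Ebf1 was found more often with Ly6d inside clusters 8 and 9 as well, and so was Il7r in 3 of the 4 libraries. Among their thinned cells Ebf1 was present in 39.4% of Ly6d-positive against 6.19% of Ly6d-negative uninduced, 5 of 10 against 6 of 126 3-day, 61.1% against 10.7% of 6-day and 28.6% against 3.34% of control cells, with intervals apart in each library. Il7r was present in 51.5% against 23.7% of uninduced, 4 of 10 against 11 of 126 3-day, 55.6% against 23.1% of 6-day and 53.6% against 22.5% of control cells, with intervals that overlapped in 3-day cells (12.2 to 73.8% against 4.44 to 15.1%) and were apart in the other 3 libraries. Ccr9 was present in 3.03% against 3.09% of uninduced and 5.56% against 5.84% of 6-day cells. It was present in 0 of 10 against 6 of 126 3-day and 10.7% against 3.95% of control cells. The Ccr9 intervals overlapped in each library. Hes1 was more frequent in Ly6d-positive cells of each library. Its intervals overlapped in uninduced (8.98 to 38.9% against 4.39 to 12.4%), 6-day (32.9 to 67.1% against 24.2 to 34.6%) and control cells. In 3-day cells Hes1 was in 4 of 10 against 8 of 126, with intervals barely apart (12.16 to 73.8% against 2.78 to 12.13%).

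**Figure D5:**
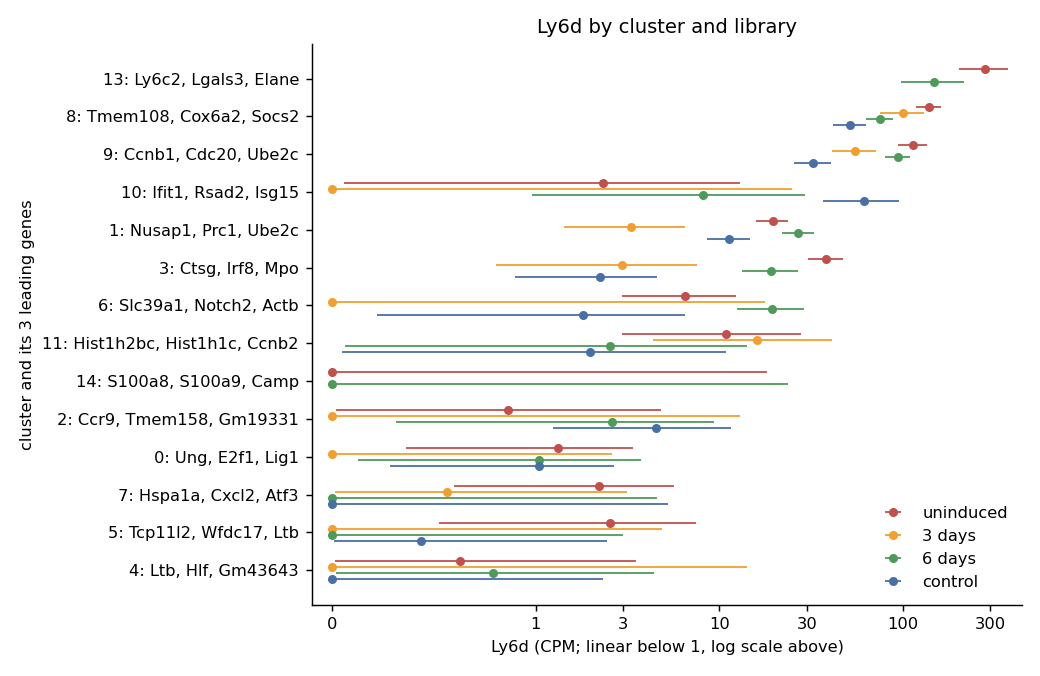
Ly6d level (horizontal, CPM, linear below 1 and logarithmic above) in each cluster (vertical, with its 3 leading genes) of at least 20 cells in a library, with 95% exact intervals of counting error. Clusters 8 and 9 stand between 32.6 and 139 CPM in all 4 libraries, and the stem cell-like cluster 4 stays below 1 CPM; cluster 13 reached 20 cells in the uninduced and 6-day libraries only.

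Over the 52 sums of a cluster in a library, the genes whose log2(CPM + 1) was most like that of Ly6d among 10333 were Ebf1 and Blnk (Pearson r = 0.80 each), Socs2 (0.74), Pgls (0.72), Myl4 (0.71), Ly86 (0.70), Tpm4 (0.70), Blk (0.69), Bfsp2 (0.69) and Mzb1 (0.69). Il7r was the 14th (0.66), and Bank1 (0.04), Ccr9 (0.00) and Hes1 (-0.06) were not alike. The sums share libraries and differ in depth, so these values are descriptions without a test. Pgls encodes an enzyme of the pentose phosphate pathway, Blk a kinase of B cells and Ly86 (MD-1) a partner of the B cell surface protein RP105.

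Among 26 listed genes of the Ly6 family, 25 were counted and 6 reached 2 CPM in any library. Ly6e, at 468 to 565 CPM, and Ly6a, which encodes the stem cell antigen Sca-1 and lay at 74.0 to 84.7 CPM, covered a narrow range over the libraries beside Ly6d. Ly6c2 was at 14.7 CPM in uninduced, 29.96 CPM in 3-day, 19.99 CPM in 6-day and 3.87 CPM in control cells. Ly6k, which neighbours Ly6d, was at 1.24, 1.88, 4.53 and 2.04 CPM in the same order, and Ly6g did not pass 2.46 CPM. Ly6e was at 911 CPM in Ly6d-positive against 497 CPM in Ly6d-negative cells, with log2 ratios of 0.76 to 0.99, and Ly6a at 145 against 86.4 CPM with ratios of -0.23 to 1.55.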

How the data were processed

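LMPPs of 4 groups were measured as 1 droplet library each on the 10X Genomics platform, per the labels' protocols. The authors deposited UMI counts of 27998 genes in 737280 barcodes for each library, and log2 values per cell for the cells they kept. Seurat and mm10 are named per the submitters' processing notes. Which aligner and annotation were used is not given in the sources used here. Per-cell deposited log2 tables gave the list of cells, and turned back into counts they equalled the Ly6d counts of the matrix in all 8883 cells.

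UMIs were summed over cells and scaled to CPM. Depth was 20952799 UMIs in uninduced, 10647894 in 3-day, 17455692 in 6-day and 23504158 in control cells. The 95% intervals come from the exact Poisson (levels), conditional exact (folds) and Clopper-Pearson (shares) methods. Shares used each cell thinned once to 4700 UMIs. Ratios between sets of cells used CPM + 1 and a minimum of 10 CPM. Calls between libraries used the same scale. Cells were clustered with scanpy 1.11.5 and leidenalg 0.10.2 (resolution 1.0, 15 neighbours, 30 components, 2000 variable genes), without Ly6d, its partners, Rbpj, sex-linked and haemoglobin genes, and Notch target, cell cycle, mitochondrial and ribosomal genes. TMM from edgeR 4.0.16 and size factors from DESeq2 1.42.0 served as other scalings. The steps were tested on simulated data. Doublets were kept, since no caller was run; cells above 2 times their library's median UMIs made up 17.8% of Ly6d-positive and 6.93% of all uninduced cells, 19.2% and 4.10% of 3-day, 12.5% and 6.90% of 6-day, and 11.8% and 5.38% of control cells. Free RNA was read in barcodes of 10 to 100 UMIs.

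Genes named are Ly6d and its 5 partners, the 20 highest and 10 lowest ratios of Ly6d-positive cells judged by their weakest library, the 10 genes most correlated with Ly6d, up to 4 members each way of 17 lists, and Ly6 family members at 2 CPM or more. Rag1, Cd79a, Pax5, Vpreb3, Cox6a2, Siglech and Flt3 by Ly6d class, Kit, and the highest cells were chosen after their values were seen. The gene, its partners, the lists and the comparisons were chosen with earlier results of these data known. Lists without a result in the report had 0 to 3 members past 2-fold either way: T lineage (0 of 4 measured), Notch target (0 of 6), NK and innate lymphoid (0 of 4), megakaryocyte (0 of 1), basophil and mast cell (0 of 2), myeloid progenitor (1 higher, Ly86, and 1 lower, Prtn3, of 11) and erythroid (1 higher, Tfrc, and 3 lower of 6). Over all genes, 0.376% were higher and 0.658% lower.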

Additional observations from a re-analysis of the deposited data

How the results depend on the processing

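No paired analysis was possible because no group has a second library. The ratio of 3-day over control cells, 0.983, crossed 1 at 1.04 with TMM and 1.05 with DESeq2 scaling, 1.10 in thinned cells and 1.08 without the mixed cluster, while the other 5 level ratios stayed on 1 side of 1. With all UMIs, 6 of the 10 genes lowest in Ly6d-positive cells were higher in positive 3-day cells (S100a8, S100a9, Wfdc21, Chil3, Gm15658 and Dqx1). Those cells included 1 of the neutrophil-like cluster, with 28213 UMIs. Without the 10 cells of each library with the most Ly6d UMIs, the Ly6d ratio was 0.162 for 3-day over uninduced and 1.28 for 6-day over uninduced. It was 0.384 for 3-day over control, 3.05 for 6-day over control and 7.95 for 6-day over 3-day cells. A fixed 10 cells is the largest part of the positive cells in the 3-day library, at 10 of 26, which lowers its level most. In thinned cells the Ly6d ratio was 2.45 for uninduced over control and 3.00 for 6-day over control. Without cells above 2 times the median UMIs, a setting chosen after the data were seen, it was 2.87 for 6-day over 3-day cells. TMM and DESeq2 scaling, leaving out other cell types and, chosen later, the mixed cluster or shared barcodes left all 6 level ratios within their intervals.

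The share of cells with at least 2 Ly6d UMIs was 1.58% in uninduced, 0.551% in 3-day, 2.22% in 6-day and 0.982% in control cells. At 3000 UMIs per cell the share was 2.11% in uninduced and 2.49% in 6-day cells, and with no thinning 2.82% in control cells. Il7r among Ly6d-positive cells was 59.1% of 6-day and 65.8% of control cells with no thinning, and 32.8% of 6-day cells in a second thinning draw. Cells with 2 or more Ly6d UMIs held Ebf1 in 66.7% and Ccr9 in 0% of 3-day cells, and Bank1 was at 0% of control cells in the second draw. With a pseudocount of 10, 14 genes were higher and 16 lower in Ly6d-positive cells, and with no minimum level 336 were lower. B lineage genes at least 1.5-fold higher at a 2 CPM minimum numbered 3 in uninduced over control, 1 in 3-day over uninduced and 5 in 6-day over uninduced cells, and 1 in the last at 2-fold. For these settings the number of list members measured and the share of all genes are not given here. The counts therefore have no background and are not read as a result about the list. The 16 thinned positive 3-day cells limit every share among them.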
